A study of Mus musculus with 2 samples.

Results

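Toll-like receptor genes and Cd14 were followed in tumour-infiltrating M-MDSCs, the monocytic subset of myeloid-derived suppressor cells, from mice on a normal-salt diet (NSD) or a high-salt diet (HSD). The genes were 10, namely Tlr1, Tlr2, Tlr4 and Tlr6 of the cell surface, Tlr3, Tlr7, Tlr8, Tlr9 and Tlr13 of the endosome, and Cd14. They were taken as every probe, other than control probes, whose transcript identifier on the array is a RefSeq transcript of one of these genes. This gave 11 probes of 39413, for 10 genes of 20653 that could be named. Tlr7 had 2 probes and each other gene had 1.

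Both groups were female BABL/c mice, as the labels spell the strain, aged between 6 and 8 weeks by the study's methods. Each was starved for 1 day and then injected under the skin with 1000000 cells of 4T1, a mammary carcinoma line. The NSD group had chow with 0.4% NaCl and tap water, and the HSD group had chow with 4% NaCl and drinking water with 1% NaCl, for 16 days. M-MDSCs were purified from the tumours with antibodies and magnetic beads, and equal numbers of cells of the mice of a group were pooled before RNA extraction. There is 1 array per diet, so no spread between mice can be computed, no test of the diet was possible, and every difference has no replicate check. A difference between the pools other than the diet cannot be told apart from the diet.

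Toll-like receptors are membrane proteins of innate immune cells that recognise molecules typical of microbes, or released by damaged cells, and signal through the adaptors MyD88 and TRIF to the kinases that activate NF-κB, MAP kinases and interferon regulatory factors. Receptors of the cell surface recognise mainly lipids and proteins, and those of the endosome recognise nucleic acids. CD14 is a lipid-anchored surface protein without a signalling domain of its own that hands lipopolysaccharide to the complex of TLR4 and MD-2, and it is a classical marker of monocytes and macrophages.

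A value on an array is the processed signal, the brightness of a spot in intensity units after background subtraction. For a fold change, signals were taken to the log2 scale and the 75th percentile of each array, 252 intensity units for NSD and 233 for HSD, was subtracted. This adds 0.11 to each log2 fold change relative to the unscaled signals, so a gene with slightly lower signal in the HSD group can have a fold change near 1. The scanning software gave each member signal above background an error of about 10%, or up to 13% for the dim Tlr8, which makes an error of 0.20 to 0.25 on a log2 fold change. Differences are given as HSD minus NSD with this error, which concerns the measurement of a spot and not the mice. It was nearly the same 10% for every bright probe, so it is not a spread measured on the spots of that probe. The 9 spots of Tlr2 had SDs of 0.012 (NSD) and 0.024 (HSD) on the log2 scale. The signals of different probes depend on the probe and were not set against each other. Summed signals of marker lists are given before scaling, and the brightest probes of a list weigh most in them. Of the 10 genes, 9 were well above background on each array, and Tlr3 on neither.

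**Figure D1:**
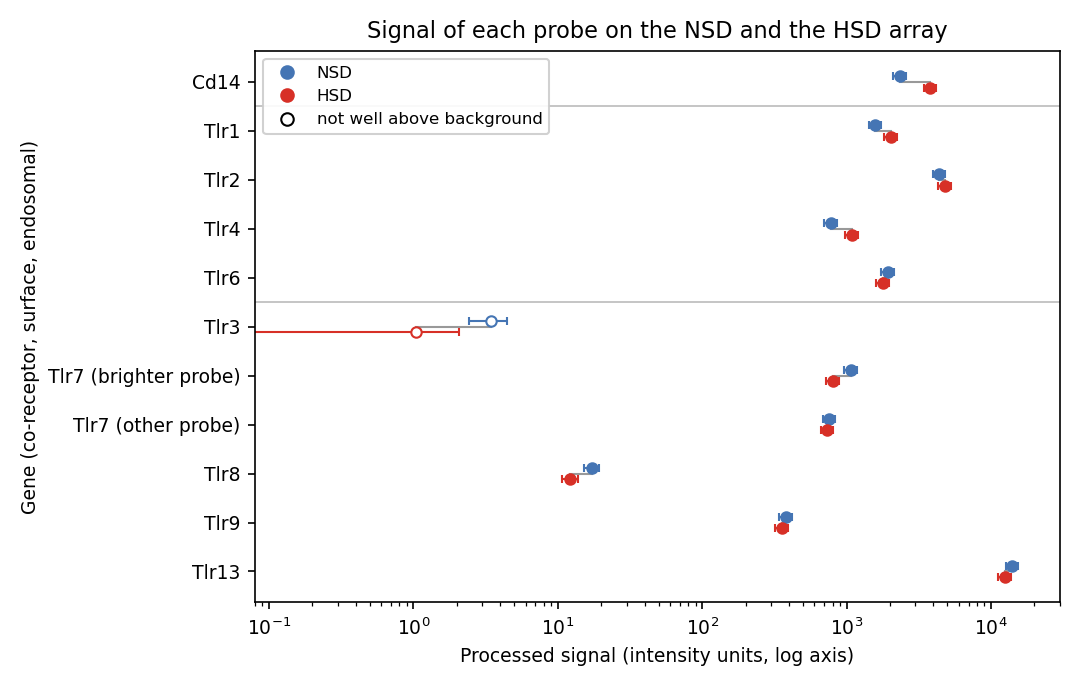
Processed signal in intensity units, on a log axis, of the 11 probes for NSD (blue) and HSD (red), with the error given by the scanning software as bars and open circles for signals not well above background. Cd14, Tlr1 and Tlr4 sit visibly to the right on the HSD array, Tlr8 and the brighter Tlr7 probe to the left, and the lower bar of Tlr3 in HSD runs off the axis.

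Cd14 and Tlr4 were the members that were higher by 1.5-fold or more in HSD, and no member was lower by as much. Among all 16316 genes with a fold change, 9.86% were higher by 1.5-fold or more and 10.3% were lower, so that 2 of the 9 measured members (22.2%) stands beside 9.86%. This is a small count on 1 array per diet, and the members were chosen with earlier results of these data known. Above 0 were 6 of the 9 members (66.7%), against 54.3% of all genes, and without scaling 4 of 9 (44.4%), against 42.8% of all genes. The median log2 fold change of the 9 members was 0.018, and that of all genes was 0.045.

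Cd14 had a signal of 2337 intensity units in NSD and 3804 in HSD. On the log2 scale it differed by 0.82 ± 0.20 (software error, 1 array per diet), or 1.76-fold, and this was the highest among the members. Without any scaling the HSD signal was still 1.63-fold that of NSD. Spots of repeated probes with a signal within 2-fold of that of Cd14 had a median SD of 0.059 on the log2 scale within an array, well below the difference. This SD does not cover the error between arrays. Cd14 was printed in a single spot on each array.

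The markers of the cells that carry CD14 did not move together. Of 9 macrophage markers, 6 were lower in HSD by 1.5-fold or more, against 10.3% of all genes, and none was higher. Their median log2 fold change was at or below −1.36. This median falls on C1qa, which was not well above background in HSD and has only a bound, and over the other 8 markers the median was −1.40. The summed signal of the 9 was 22092 intensity units in NSD and 13810 in HSD. Of 8 monocyte markers with a named probe, all well above background on both arrays, 1 was higher and 2 were lower by 1.5-fold. Their median was −0.37 and 6 of the 8 were below 0. Their summed signals were 100445 and 105846, of which Chil3 had 34255 and 49710. Itgam, which encodes CD11b, one of the proteins that define M-MDSCs, had 31564 and 31043 intensity units, and Ly6c2 had no named probe. All 10 neutrophil markers with a named probe were also well above background for either diet. Their summed signals were 343619 and 334056, and after scaling the sum in HSD was 1.05-fold that in NSD. Their median log2 fold change was 0.074, with 1 marker at least 1.5-fold lower. The part of these cell types in the values of Cd14 or of the receptors was not tested, and in pooled RNA fewer cells of a type and less RNA per cell cannot be told apart.

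The cell-surface receptors among the members had log2 fold changes above 0 in 4 of 4 genes, against 54.3% of all genes, with a median of 0.36. However, Tlr6 lay so near 0 that it was below it under 5 of the 12 processing settings. Tlr5, a further cell-surface receptor that is not among the members, had dim signals and a log2 fold change of −0.13. Tlr4, which encodes the receptor for lipopolysaccharide, had the largest value of the group. Its signal was 780.5 intensity units in NSD and 1092 in HSD, a log2 fold change of 0.60 ± 0.20, or 1.52-fold, which lies just past the threshold. It was at least 1.5-fold higher under 8 of the 12 settings and between 0.49 and 0.61 under the alternatives. Repeated probes of like signal had a median spot SD of 0.057. Ly96 encodes MD-2, the protein that binds lipopolysaccharide beside TLR4. It had signals of 1511 and 1979 and a log2 fold change of 0.50, below 1.5-fold.

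Tlr1, Tlr2 and Tlr6 act together, since TLR2 pairs with TLR1 to recognise triacylated lipopeptides and with TLR6 to recognise diacylated ones. Their values went in steps from Tlr1 to Tlr6. Tlr1 had 1585 intensity units in NSD and 2020 in HSD, a log2 fold change of 0.46 ± 0.20 or 1.38-fold. Tlr6 had 1930 and 1789, a log2 fold change of 0.0051 ± 0.20, so its HSD signal was lower before scaling and level with NSD after it. Tlr1 and Tlr6 are direct neighbours on chromosome 5 in RefSeq, with 0 annotated genes between them. 

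Tlr2 was the member measured with most precision within an array. Its probe was printed in 10 spots on each array, and 1 spot per array was left out as an outlier. The remaining 9 spots ranged from 4348 through a median of 4373 to 4452 intensity units for NSD. For HSD they ranged from 4661 through 4842 to 4914. All 9 HSD spots were brighter than every NSD spot, also before scaling. The mean was 4390 ± 36.0 (SD, 9 spots) in NSD and 4813 ± 80.1 (SD, 9 spots) in HSD. On the log2 scale the spots had SDs of 0.012 and 0.024, and the log2 fold change was 0.25 ± 0.20 or 1.19-fold. Spots of 1 array measure the same pooled RNA, so they show how finely each array was read. They cover neither the error between arrays nor how far mice of a diet differ. Under the alternative settings the Tlr2 value was between 0.13 and 0.27.

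**Figure D2:**
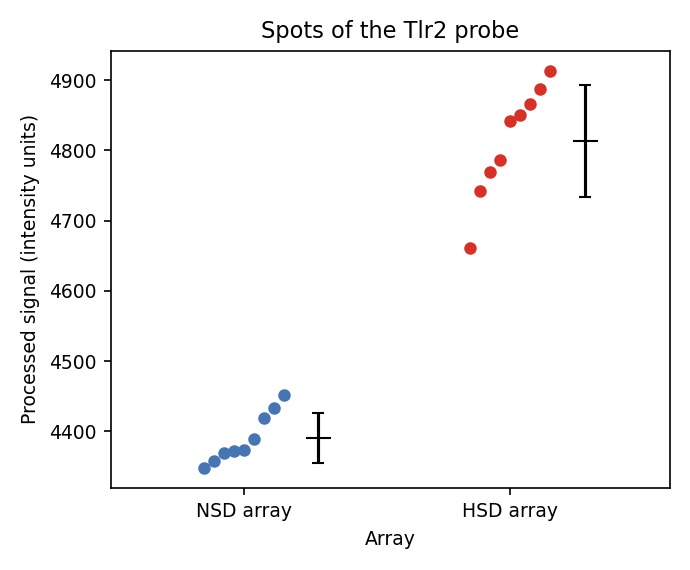
Processed signal in intensity units of the 9 spots of the Tlr2 probe that were kept for NSD (blue) and for HSD (red), each row sorted, with the mean and SD over spots at the right; the vertical axis does not start at 0. The rows do not overlap, with 4452 as the highest NSD spot and 4661 as the lowest HSD spot.

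The endosomal receptors had a median log2 fold change of −0.18 over the 4 genes that were measured, 3 of them below 0 and none past 1.5-fold; the fourth, Tlr9, was below 0 under 3 of the 12 settings. Tlr7, a receptor for single-stranded RNA, had 2 probes, and they did not give the same value. The brighter one had 1075 intensity units in NSD and 803.5 in HSD (log2 fold change −0.31 ± 0.20), and the other had 758 and 734 (log2 fold change 0.069 ± 0.20). With the other probe in place of the brighter one the median of the endosomal group was −0.018. Tlr8, a close relative and the direct neighbour of Tlr7 on the X chromosome, had a dim probe. Its signals were 17.3 and 12.2 intensity units, a log2 fold change of −0.39 ± 0.25. At this brightness the median spot SD of repeated probes was 0.18, about 3 times that near Tlr4. With the normexp background correction the value was −0.071. That correction adds an offset of 50 to each signal, which draws dim values toward 0 by construction.

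Tlr9, the receptor for unmethylated CpG DNA, had 381 intensity units in NSD and 356.5 in HSD, a log2 fold change of 0.018 ± 0.20. Tlr13, a mouse receptor for bacterial ribosomal RNA, had 14089 and 12532 (log2 fold change −0.055 ± 0.20). For both, the difference was well within the software error. Tlr3, the receptor for double-stranded RNA, had signals of 3.42 and 1.04 intensity units. The lowest signals that counted as well above background were 4.61 for NSD and 4.39 for HSD, so a level of Tlr3 was not detectable on either and no fold change is given.

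Tlr7 and Tlr9 are typical of plasmacytoid dendritic cells and B cells, and markers of both were well above background in these preparations. The 8 plasmacytoid markers had summed signals of 17643 and 16306 intensity units, of which Siglech had 13705 and 13214. After scaling the sum in HSD was 1.00-fold that in NSD. The median log2 fold change of the 8 was −0.12 (0.040 with the normexp correction). Of them, 3 were at least 1.5-fold lower, against 10.3% of all genes. The 6 B cell markers had 6505 and 7646. All 6 of them were above 0, against 54.3% of all genes, with a median of 0.47, and none reached 1.5-fold. Xcr1, a marker of the conventional dendritic cells that are known for Tlr3, was, like Tlr3, not well above background for either diet. Clec9a, a further marker of the list, was above it on both arrays, at 6.93 and 11.1 intensity units (log2 fold change 0.80). The 6 conventional dendritic cell markers with a named probe summed to 852 and 770 intensity units, of which Ccr7 had 746 and 682. In this list 1 marker was higher and 1 lower by 1.5-fold or more, with a median log2 fold change of −0.015. Markers of T and NK cells summed to 1984 and 2318, of which Cd3d had 1501 and 1871. Of the 6 with a fold change, 3 were above 0 and 3 below, with a median log2 fold change of 0.036. Of these, 1 (Cd3e) was lower by 1.5-fold or more and none was higher. Those of endothelial cells summed to 251 and 277. The 6 markers of 4T1 carcinoma cells were dim and summed to 155 and 143, or 1.00-fold in HSD after scaling. Of these, 3 were higher by 1.5-fold or more (Epcam, Krt8 and Krt18) and none was lower, with a median log2 fold change of 0.34. The 5 fibroblast markers summed to 141 and 107.5, and of the 4 with a fold change 2 were lower by 1.5-fold or more, with a median log2 fold change of −0.68 (−0.041 with the normexp correction). Their part in the values of the receptors was not tested.

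Set side by side, the surface receptors among the members (without Tlr5) had a median log2 fold change 0.54 above that of the endosomal ones. The ranges did not overlap except near 0. The surface genes lay between 0.0051 and 0.60, and the endosomal genes between −0.39 and 0.018, so that Tlr6 and Tlr9 crossed, and Tlr7 would cross too by its other probe (0.069). The difference of the medians was between 0.41 and 0.66 under the alternative settings, and 0.37 with the other Tlr7 probe. It rests on 4 genes against 4, which share the same arrays and are no replicates, and on differences that, apart from Tlr4, were below 1.5-fold. Without Tlr4 the surface median was 0.25.

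**Figure D3:**
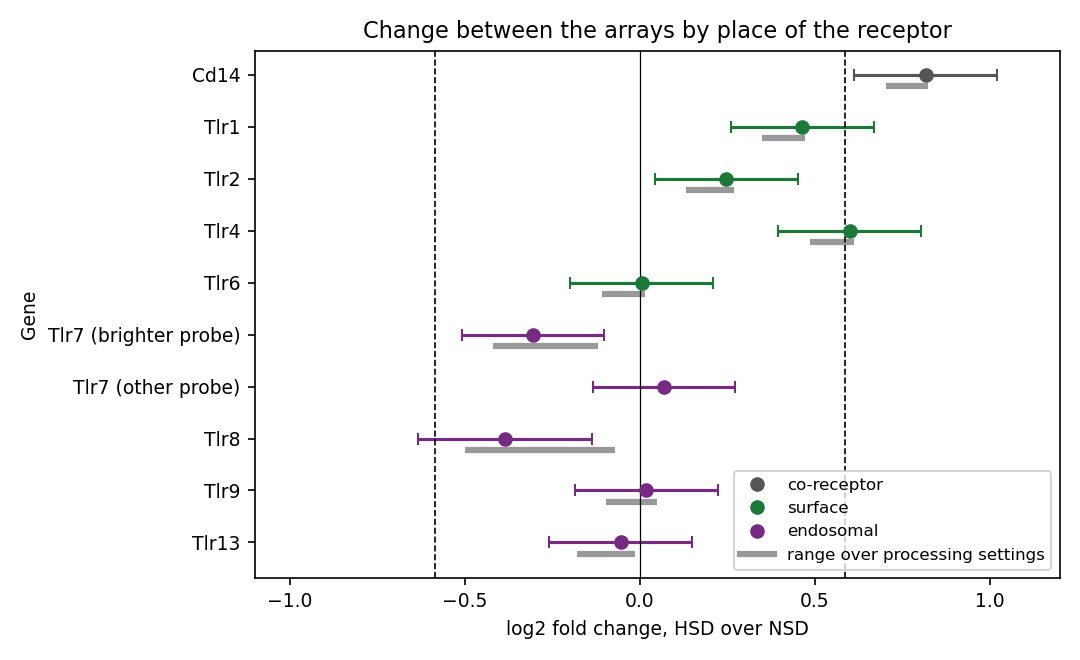
log2 fold change of HSD over NSD for the 10 probes with a value, coloured by place of the receptor, with the software error as bars, the range over processing settings in grey and dashed lines at 1.5-fold. Cd14 and Tlr4 are past the upper line, no gene is past the lower line, and the endosomal receptors lie at or below 0 apart from the other Tlr7 probe at 0.069 and Tlr9 at 0.018.

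Promoter sequences of 7 of the 10 genes were at hand in RefSeq (GRCm38.p6), 9 starts in all. The 250 bases before each start were searched on both strands for the core site of PU.1, the myeloid transcription factor (GAGGAA), for the first letters of a κB site (GGGANTTTC) and for the core of an interferon response element (GAAANNGAA). Of all 32851 promoters of the same length, 23.3% held the first, 0.941% the second and 7.13% the third. The PU.1 core was found before Tlr1, Tlr8, Tlr9 and Tlr13, in 4 of the 9 windows, the κB letters before Tlr3 and the interferon core before Tlr6 and Tlr8. Those of Tlr1 and Tlr8 are shown because, of the genes with a sequence at hand, these had the highest and the lowest log2 fold change. Capitals mark the motif matches. In Tlr1 the PU.1 core begins 23 bases before the start shown, and a second start of Tlr1 in the table has none of the 3 motifs in its window. In Tlr8 the matches lie on the opposite strand and begin 77 bases (PU.1) and 67 bases (interferon core) before it. A match describes the letters and not the binding of a factor. Other forms of a κB site were not searched, so a window without these letters can still hold one.
Tlr1, chr5:64933559-64933808, minus strand: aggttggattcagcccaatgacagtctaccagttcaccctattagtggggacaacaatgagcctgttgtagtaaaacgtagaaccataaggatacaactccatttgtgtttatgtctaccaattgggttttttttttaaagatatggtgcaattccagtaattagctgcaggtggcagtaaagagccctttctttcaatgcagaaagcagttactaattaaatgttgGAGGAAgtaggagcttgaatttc
Tlr8, chrX:167264330-167264579, minus strand: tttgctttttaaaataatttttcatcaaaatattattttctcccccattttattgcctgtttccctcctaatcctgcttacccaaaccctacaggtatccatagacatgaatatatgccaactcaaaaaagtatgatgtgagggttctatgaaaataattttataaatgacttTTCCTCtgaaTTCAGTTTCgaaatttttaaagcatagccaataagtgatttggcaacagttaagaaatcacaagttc

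The other genes of the pathway were taken from 8 lists by role, with 71 genes in all, of which 68 had a fold change. Of these 68 genes, 11 (16.2%) were higher in HSD by 1.5-fold or more and 11 (16.2%) were lower, against 9.86% and 10.3% of all genes. The lists were chosen with earlier results of these data known, so these shares can depend on the choice of genes. The median log2 fold change of the 68 genes was 0.088. Each of the 22 genes past 1.5-fold had a single probe.

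Among genes for ligand delivery and co-receptors, 1 of 6 was higher and 3 were lower. Lbp, the lipopolysaccharide-binding protein that loads CD14, had 85.6 intensity units in NSD and 134.4 in HSD (log2 fold change 0.77, or 0.53 with the normexp correction and then below 1.5-fold). Cd180 and Ly86 encode the paired proteins RP105 and MD-1, which resemble TLR4 and MD-2. Cd180 went from 27.0 to 12.6 (log2 fold change −0.99, or −0.18 with the normexp correction), and Ly86 from 1439 to 751.4 (log2 fold change −0.82). Cd36, a scavenger receptor that assists the TLR2 and TLR6 pair, went from 334.5 to 97.6 (log2 fold change −1.66).

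Of the remaining Toll-like receptors, Tlr5, also of the cell surface, and Tlr12 were dim, with log2 fold changes of −0.13 and −0.31. Tlr11 was too dim for a value. None was past 1.5-fold.

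Of the adaptors, 5 had a fold change and all 5 were above 0, against 54.3% of all genes. Without scaling 4 of 5 were, against 42.8% of all genes. Pik3ap1 lay near 0, at 0.014, and 1 adaptor was past 1.5-fold. Myd88, the adaptor used by all members of the family but TLR3, went from 2557 intensity units in NSD to 4937 in HSD, a log2 fold change of 1.06 or 2.09-fold, and was between 0.95 and 1.08 under the alternatives. Tirap, which bridges MyD88 to TLR2 and TLR4, had 0.20. Ticam1, which encodes TRIF, the adaptor of TLR3 and of internalised TLR4, had a low signal of 52.9 and 64.2 and a log2 fold change of 0.39.

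The genes that carry endosomal receptors to their place or cut them there had 0 of 8 higher and 3 of 8 lower, against 9.86% and 10.3% of all genes. All 3 were proteases that trim the receptors in the endosome, whereas cathepsin B (Ctsb), a further protease of the list, had 37361 and 34444 intensity units and a log2 fold change of −0.0030. Legumain (Lgmn) went from 7000.5 intensity units in NSD to 1379 in HSD, a log2 fold change of −2.23. Cathepsin L (Ctsl) went from 16372 to 5453 (log2 fold change −1.47) and cathepsin S (Ctss) from 24546 to 9101 (log2 fold change −1.32). Unc93b1, the chaperone that brings these receptors out of the endoplasmic reticulum, had 3622 and 3846 intensity units and a log2 fold change of 0.20. Lysosomal proteases of this kind are also abundant in macrophages, whose markers were lower in the HSD group (summed signals above), and their part in these values was not tested.

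Of the 17 kinases and ubiquitin ligases, 2 were higher and none lower by 1.5-fold, with a median log2 fold change of 0.11, which was level with 0 without scaling. Ikbke, a kinase that activates interferon regulatory factors, went from 263 intensity units in NSD to 461.9 in HSD (log2 fold change 0.93). Ripk1 went from 710 to 993.5 (log2 fold change 0.60), just past 1.5-fold, and was past it under 7 of the 11 alternatives. As for Tlr4, some of those cannot move it. Irak4 and Traf6, the kinase and the ligase next to MyD88, had −0.25 and 0.42, both below the threshold.

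Of 10 negative regulators, 2 were higher. Irak3, an IRAK without kinase activity that holds back signalling from MyD88, had 2074 intensity units in NSD and 4806 in HSD, which is 1.33 on the log2 scale or 2.51-fold. Cyld, a deubiquitinase, had low signals of 21.2 and 49.0 (log2 fold change 1.32, or 0.50 with the normexp correction and then below 1.5-fold). Socs1 had −0.39.

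Of 6 transcription factors, Irf7 was lower, from 373 intensity units in NSD to 57.0 in HSD, with a log2 fold change of −2.60. It is the interferon regulatory factor that TLR7 and TLR9 use in plasmacytoid dendritic cells, and its own transcription is induced by interferon. Irf5, also used by these receptors, had −0.48, Irf3 had −0.13 and Rela, a subunit of NF-κB, had 0.14.

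The early target genes moved both ways. Of 14 with a fold change, 5 were higher and 4 were lower by 1.5-fold, with a median log2 fold change of 0.37. Higher were Cxcl2, from 107.8 intensity units in NSD to 402 in HSD (log2 fold change 2.02), and Cxcl1, from 30.9 to 105 (1.88), which encode neutrophil-attracting chemokines. Also higher were the cytokine Tnf, from 688 to 1299 (log2 fold change 1.03), the NF-κB inhibitor Nfkbia, from 17032 to 28833 (0.87), and Ptgs2, an enzyme of prostaglandin synthesis, from 27.3 to 48.5 (0.95, or 0.44 with the normexp correction). Lower were Ifit1, from 4564 to 461.6 (log2 fold change −3.19), Ccl5, from 1168 to 385 (−1.49), and Cxcl10, from 417.8 to 212.6 (−0.86). These 3 are known to be induced by interferons as well as by the receptors. The remaining lower gene, Il1a, had dim signals of 33.2 and 16.3 (−0.91, or −0.18 with the normexp correction). The cytokine Il1b had a log2 fold change of 0.33 at signals of 15464 and 17986.

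**Figure D4:**
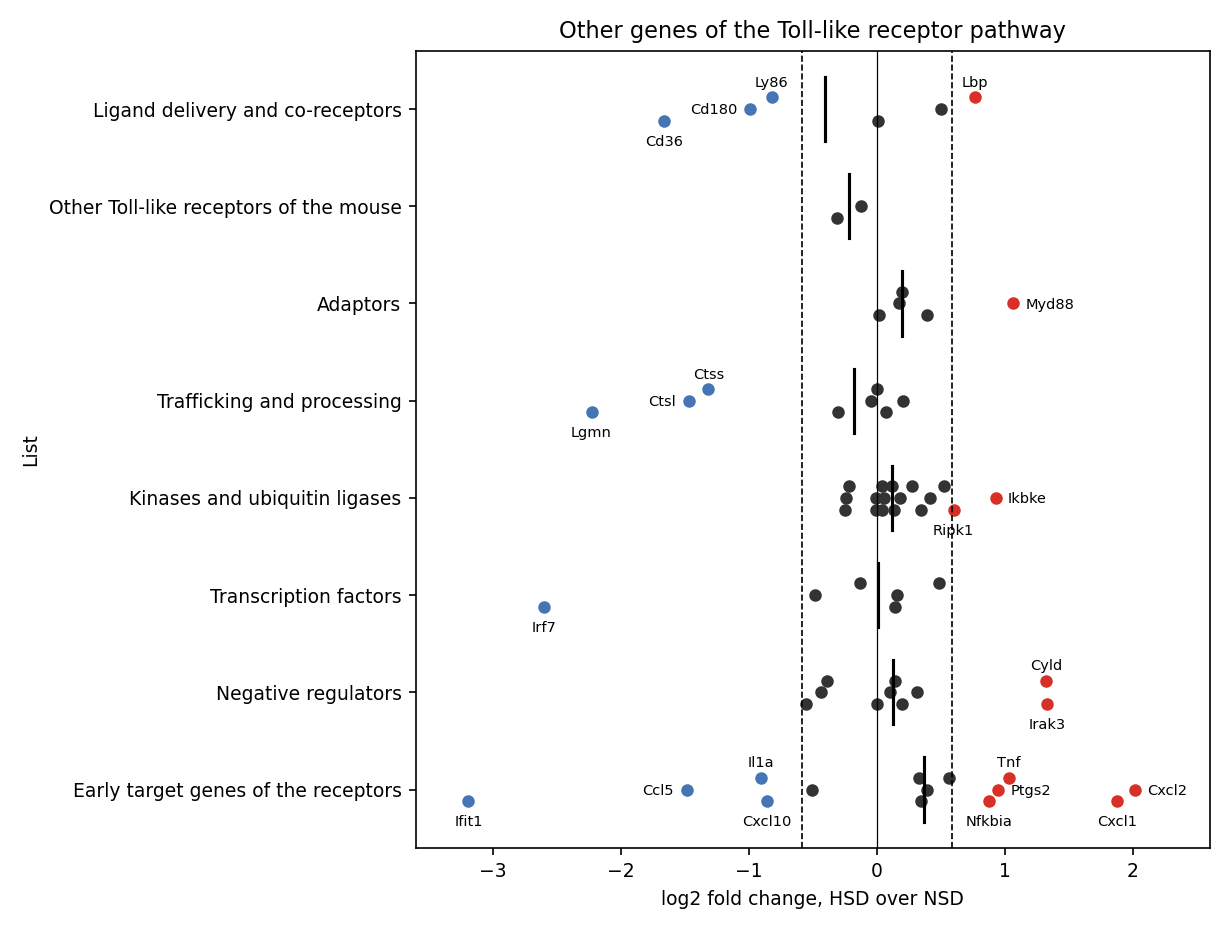
log2 fold change of HSD over NSD of the 68 other pathway genes with a value, in rows by list, with a black bar at each list's median, dashed lines at 1.5-fold, and the 11 higher genes in red and 11 lower genes in blue, named. Myd88, Irak3, Cxcl1 and Cxcl2 stand to the right, and Ifit1, Irf7, Lgmn, Cd36, Ccl5, Ctsl and Ctss to the left.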

How the data were processed

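RNA of M-MDSCs was hybridised to Agilent Mouse GE v2 arrays with a single dye (Cy3), 1 array per diet. The authors deposited scanner output of Feature Extraction 11.0.1.1, whose processed signal, an intensity, had been corrected for background and spatial trends but not normalized between arrays. Its error and the median brightness of spot and local background are deposited as intensities too. The authors also deposited normalized log2 values made with GeneSpring. Their method is not given in the sources used here, though the columns, once sorted, differ by at most 0.052, as after quantile normalization. They served as an alternative, and 0 columns of values per sample were left unused.

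Control spots and outlier spots (162 on NSD, 179 on HSD) were left out, spots of a probe were averaged on the log2 scale, and the 75th percentile was subtracted. No spot was saturated. A probe was well above background when at least 50% of its spots were, which held for 71.9% of probes on NSD and 72.4% on HSD. A probe above background on 1 array only has a bound, taken against the lowest signal above background, and a probe above background on neither has no fold change. Precision is limited by the number of arrays. Transcripts were named without versions through RefSeq (GRCm38.p6), which named 69.1% of probes. The probe with the highest mean log2 signal stood for a gene. The array was designed on an older assembly, and coordinates are given only for the promoter windows printed. The fold of 1.5 is the study's own. All members are described, and every pathway gene past that fold is named, with a few others per list. The members and lists were chosen with earlier results of these data known. Counting was tested on simulated data, which checks the counting only and not whether a difference between these 2 pools comes from the diet. Alternatives were normexp with an offset of 50 (on the median signal, as no mean signal is used here), quantile, median, cyclic loess and no scaling, the 75th percentile of detected probes, the authors' log2 values, other filters, outlier spots kept, the median over probes and a 2-fold threshold. Python 3.11.15, numpy 2.4.6, pandas 2.3.3, matplotlib 3.10.9, R 4.3.3 and limma 3.58.1 were used.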

Additional observations from a re-analysis of the deposited data

How the results depend on the processing

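No paired analysis was possible because each diet has 1 array, and for the same reason no array could be left out. Of the members, 2 were at least 1.5-fold higher. With quantile normalization, with the 75th percentile of probes above background on both arrays, with cyclic loess and with no scaling there was 1, Cd14, and Tlr4 had log2 fold changes of 0.56, 0.56, 0.53 and 0.49. Cd14 was past 1.5-fold under all 12 settings with a value, between 0.70 and 0.82 under the alternatives. The filters on dim probes and the median over probes cannot move Cd14 or Tlr4, each with a single probe above background. With a 2-fold threshold 0 members, 6 pathway genes higher and 7 lower were counted. Without a filter on dim probes 1 member was lower, Tlr3, from signals not well above background. The surface median stayed above the endosomal median under all 12 settings. Several of these could not change the difference, which stayed at 0.54. Median scaling, the 75th percentile of detected probes and no scaling only subtract another value per array, which cancels in it. The filter for probes above background on both arrays kept the same members. With the normexp correction 3.88% of all genes were higher and 4.07% lower, and with the 2-fold threshold 2.62% and 4.17%. Of the genes past 1.5-fold, 48.9% were higher, against 38.5% with cyclic loess and 32.7% with no scaling, where the median of all genes was −0.070 in place of 0.045. Also with normexp, Irf7 had −1.74, Cd36 −1.25, Cxcl1 1.03, and the macrophage markers a median of −0.60. The normexp correction adds an offset of 50 to each signal, which draws log2 fold changes of dim probes toward 0 by construction. The values of Tlr8, Cd180, Cyld and Il1a moved toward 0 with it, as did those of the brighter Irf7 and Cd36. Neither these shifts nor the smaller shares of genes past 1.5-fold with normexp can therefore show whether a dim value is reliable. Causes other than the offset were not tested. What limits these data is 1 pooled array per diet. Dim signals are a further limit, since repeated probes near the brightness of Tlr8 had a median spot SD of 0.18 on the log2 scale.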
